A study of Mus musculus with 8 samples.

Results

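Tbx21, which encodes the TH1 lineage factor T-bet, and Gata3, which encodes the TH2 lineage factor GATA3, were followed transcript by transcript in EL4 cells, a mouse C57BL/6 T lymphoma line. Every transcript assigned to either gene symbol was taken, which gave 7 of the 136535 transcripts quantified, 1 of Tbx21 and 6 of Gata3. Poly-adenylated RNA was sequenced from 4 EL4 lines, with 2 libraries per line harvested on different days, so that the spread between libraries is that of repeated harvests of a single transduced line. GFP + Plum cells carried the 2 fluorescent control vectors and no ectopic factor, T-bet + Plum cells expressed FLAG-T-bet, GFP + GATA3 cells expressed HA-GATA3, and T-bet + GATA3 cells expressed both. All 4 lines were retrovirally transduced, kept their endogenous Tbx21 and Gata3 genes, and were stimulated for 4 h with phorbol 12-myristate 13-acetate (PMA, 50 ng/ml) and ionomycin (1 µM), so no unstimulated state was compared. The total estimated count per library ranged from 8038565 to 16003519.

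T-bet binds DNA through a T-box domain and drives interferon gamma production and TH1 identity, while GATA3 binds GATA motifs through a pair of zinc fingers, is needed for T cell development and drives TH2 cytokine genes. The factors oppose each other in helper T cells and are also found together in some of them. An ectopic cDNA and its endogenous gene share their coding sequence, and short-read quantification divides fragments among annotated transcripts, so that the added RNA is counted under transcript models of the endogenous locus.

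Tbx21 has a single annotated transcript, Tbx21-201 (ENSMUST00000001484.2, chr11:97098071-97115331, minus strand, GRCm38), with 6 exons and 2488 bases, of which 1593 are coding. All 2458 stretches of 31 bases in Tbx21-201 were found in no other annotated transcript, and its estimated count was a whole number in 8 of 8 libraries, so no Tbx21 fragment was divided with another transcript. Endogenous and introduced Tbx21 therefore enter the same value and cannot be told apart. Gata3 spans chr2:9857078-9890034 on the minus strand. Gata3-201 (ENSMUST00000102976.3) holds the full open reading frame in 6 exons and 3215 bases, of which 1332 are coding. Gata3-202 (ENSMUST00000130615.1, 674 bases) is annotated as protein coding, begins with an exon of 218 bases at chr2:9889817-9890034, upstream of the start of Gata3-201, and ends within exon 3 of Gata3-201. Its other 456 bases all lie in the coding sequence of Gata3-201. Its second exon begins 6 bases after the first coding base of Gata3-201, and its annotated start codon lies 105 bases, or 35 codons, downstream in the same frame.

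Gata3-205 (ENSMUST00000151456.1, 243 bases) is annotated as a processed transcript. It opens with 59 bases at chr2:9873614-9873672, which lie in an intron of Gata3-201, and its other 184 bases are coding in Gata3-201. Gata3-206 (ENSMUST00000153509.1, 731 bases) joins 292 bases at chr2:9875108-9875399, also in an intron of Gata3-201, to 439 bases of its coding exon 3. Gata3-203 (ENSMUST00000142305.1, 281 bases) and Gata3-204 (ENSMUST00000147533.1, 344 bases) reach Gata3-201 only in 95 and 150 bases of its exon 2 ahead of the start codon, with no base of the coding sequence. Of the 644 stretches of 31 bases in Gata3-202, 428 were shared with Gata3-201, 160 with Gata3-203, which opens with the same upstream exon, and 56 were found in no other transcript. Gata3-201 alone held 2224 of its 3185 stretches, 1722 of them outside its coding sequence.

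**Figure D1:**
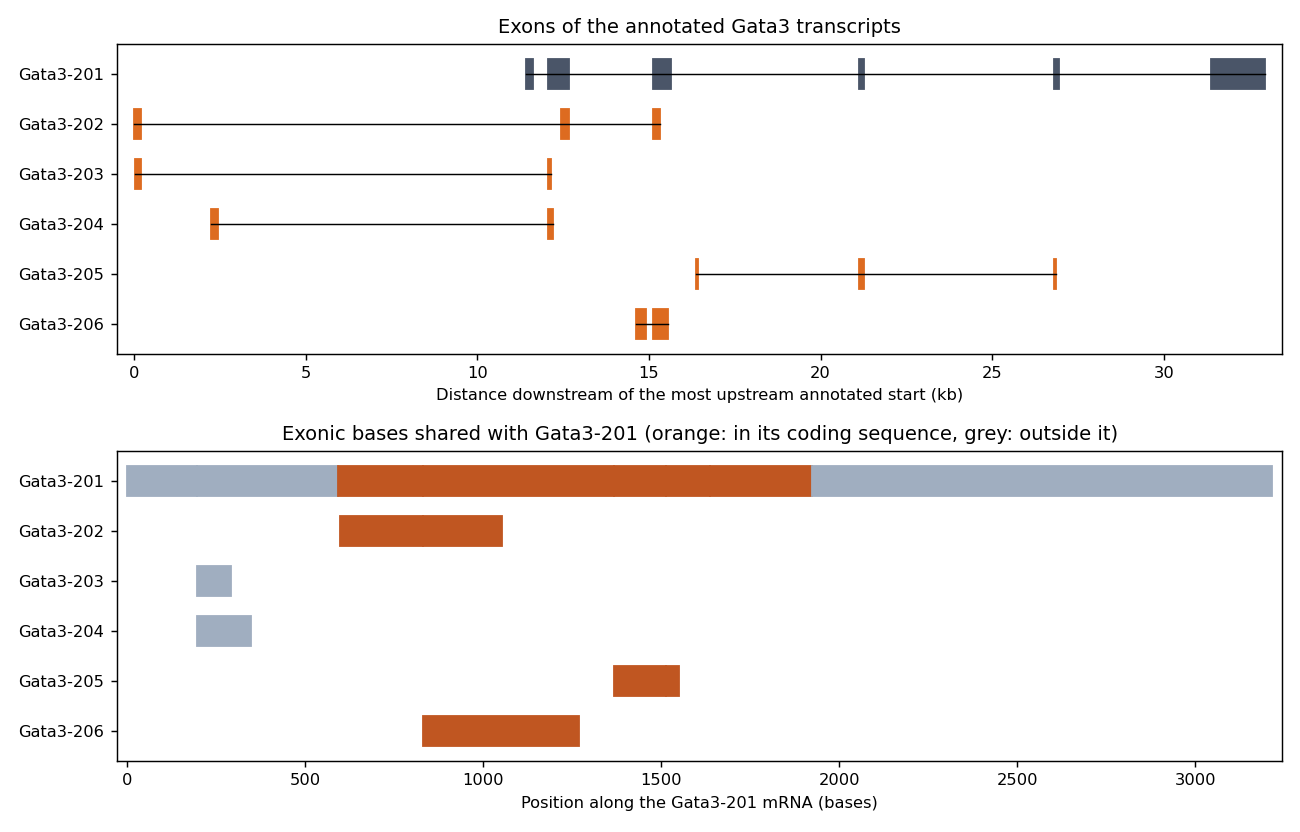
The upper panel draws the exons of the 6 annotated Gata3 transcripts against the distance in kb from the most upstream annotated start, and the lower panel places the bases they share with Gata3-201 along its mRNA (orange inside the coding sequence, grey outside it). The shared bases of Gata3-202, Gata3-205 and Gata3-206 lie in the coding sequence, and those of Gata3-203 and Gata3-204 lie ahead of it.

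The joins of the short Gata3 transcripts are shown as 30 bases each, since fragments across a join are among those that separate one transcript from another. Bases that are coding in Gata3-201 are in capitals, and all runs are on the minus strand, read 5′ to 3′.
Gata3-202, exon 1 to exon 2: gcgaacttgttgaagGTGACTGCGGACCAG
Gata3-201 at the same place: gccgaggacATGGAGGTGACTGCGGACCAG
Gata3-205, exon 1 to exon 2: ttgattggaggccagAAGGCAGGGAGTGTG
Gata3-201, exon 3 to exon 4: CACGATCCAGCACAGAAGGCAGGGAGTGTG
Gata3-206, exon 1 to exon 2: accacggagattagcGGAGCCAGGTATGCC
Each short transcript met the Gata3-201 sequence at an exon boundary or, for Gata3-202, just inside the open reading frame. The capitals of Gata3-202 and Gata3-205 continue into exons shared with Gata3-201. Exon 4 of Gata3-201 (chr2:9868761-9868906), which encodes the N-terminal zinc finger, is carried whole by Gata3-205.
Gata3-201 exon 4: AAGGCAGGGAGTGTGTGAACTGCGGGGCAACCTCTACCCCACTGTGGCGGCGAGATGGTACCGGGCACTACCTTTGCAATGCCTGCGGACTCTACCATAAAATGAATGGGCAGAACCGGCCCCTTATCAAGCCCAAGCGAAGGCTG
The stretch that Gata3-202 shares with exon 2 of Gata3-201 (chr2:9877352-9877583) begins 6 bases into the GATA3 reading frame.
Gata3-201 exon 2, shared part: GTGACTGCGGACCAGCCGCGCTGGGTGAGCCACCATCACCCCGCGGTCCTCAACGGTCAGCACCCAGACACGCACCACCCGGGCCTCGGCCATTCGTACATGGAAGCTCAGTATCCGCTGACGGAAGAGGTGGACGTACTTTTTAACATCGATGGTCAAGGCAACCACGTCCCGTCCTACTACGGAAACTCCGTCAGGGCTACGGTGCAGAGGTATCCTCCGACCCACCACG

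Tbx21 was first examined, since it checks the labels of the T-bet lines. Levels are given in TPM, an abundance scaled for transcript length and to the same total in every library. Tbx21-201 was at 1.71 and 0.755 TPM in GFP + Plum, at 56.4 and 69.2 TPM in T-bet + Plum, at 0.941 and 1.05 TPM in GFP + GATA3, and at 52.4 and 70.2 TPM in T-bet + GATA3. The 4 libraries with FLAG-T-bet were all above the 4 without it, with no overlap. The mean was 62.8 ± 9.0 TPM in T-bet + Plum and 61.3 ± 12.6 TPM in T-bet + GATA3 (SD, n = 2 each), which differed by less than their spread. Without FLAG-T-bet, the means of 1.23 ± 0.679 TPM in GFP + Plum and 0.993 ± 0.0738 TPM in GFP + GATA3 (SD, n = 2 each) also lay within their spread. The control level rested on 28 and 58 counts, above the 0.0887 TPM at most to which 3 counts corresponded in these libraries.

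Gata3-201, the full-length transcript, was present in every line, including those without HA-GATA3. It was at 13.8 and 16.7 TPM in GFP + Plum, 8.34 and 10.99 TPM in T-bet + Plum, 82.0 and 96.7 TPM in GFP + GATA3, and 48.7 and 45.7 TPM in T-bet + GATA3. The order of the lines was GFP + GATA3, T-bet + GATA3, GFP + Plum and T-bet + Plum, and the libraries of neighbouring lines in this order did not overlap. The mean was 89.3 ± 10.3 TPM in GFP + GATA3 and 47.2 ± 2.15 TPM in T-bet + GATA3 (SD, n = 2 each).

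Gata3-202, the transcript with the upstream first exon, was listed at 0 in all 4 libraries without HA-GATA3. It was at 72.2 and 71.1 TPM in GFP + GATA3 and at 39.8 and 35.4 TPM in T-bet + GATA3. These levels rested on rounded estimates of 401 and 593 counts in GFP + GATA3 and of 237 and 302 counts in T-bet + GATA3. The floor of 3 counts corresponded to between 0.325 and 0.656 TPM in the libraries at 0. Taking that floor in each library at 0, the estimate for Gata3-202 was at least 202-fold higher in GFP + GATA3 than in GFP + Plum. It was at least 80.2-fold higher in T-bet + GATA3 than in T-bet + Plum. Both folds are in CPM, counts scaled to a common library total and not for length. A 0 here is an estimate from fragments that can also match Gata3-201, and does not show that the upstream exon was silent. The counts with HA-GATA3 are estimates of the same kind. Both folds therefore hold for the estimates, and not for the amount of RNA with the upstream exon.

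Gata3-205, the short transcript around the zinc finger exon, was present with and without HA-GATA3. It was at 9.26 and 9.25 TPM in GFP + Plum, 1.90 and 8.45 TPM in T-bet + Plum, 107 and 129 TPM in GFP + GATA3, and 74.2 and 55.7 TPM in T-bet + GATA3. The 4 libraries with HA-GATA3 were all above the 4 without it. Its effective length was 170 to 174 bases, so a small count gave a high TPM, and the 1.90 TPM of the first T-bet + Plum library rested on 2 counts. Gata3-206 did not separate the lines. It ranged from 0.290 to 3.07 TPM over the 8 libraries, on 3 to 28 counts, and the lines overlapped. Gata3-203 and Gata3-204 were at 3 counts or fewer in every library and did not pass the filter on low counts, so 5 of the 7 transcripts were tested. Gata3-203, which opens with the same upstream exon as Gata3-202, was at 0 in 3 of the 4 libraries with HA-GATA3 and at 1 count in the other.

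**Figure D2:**
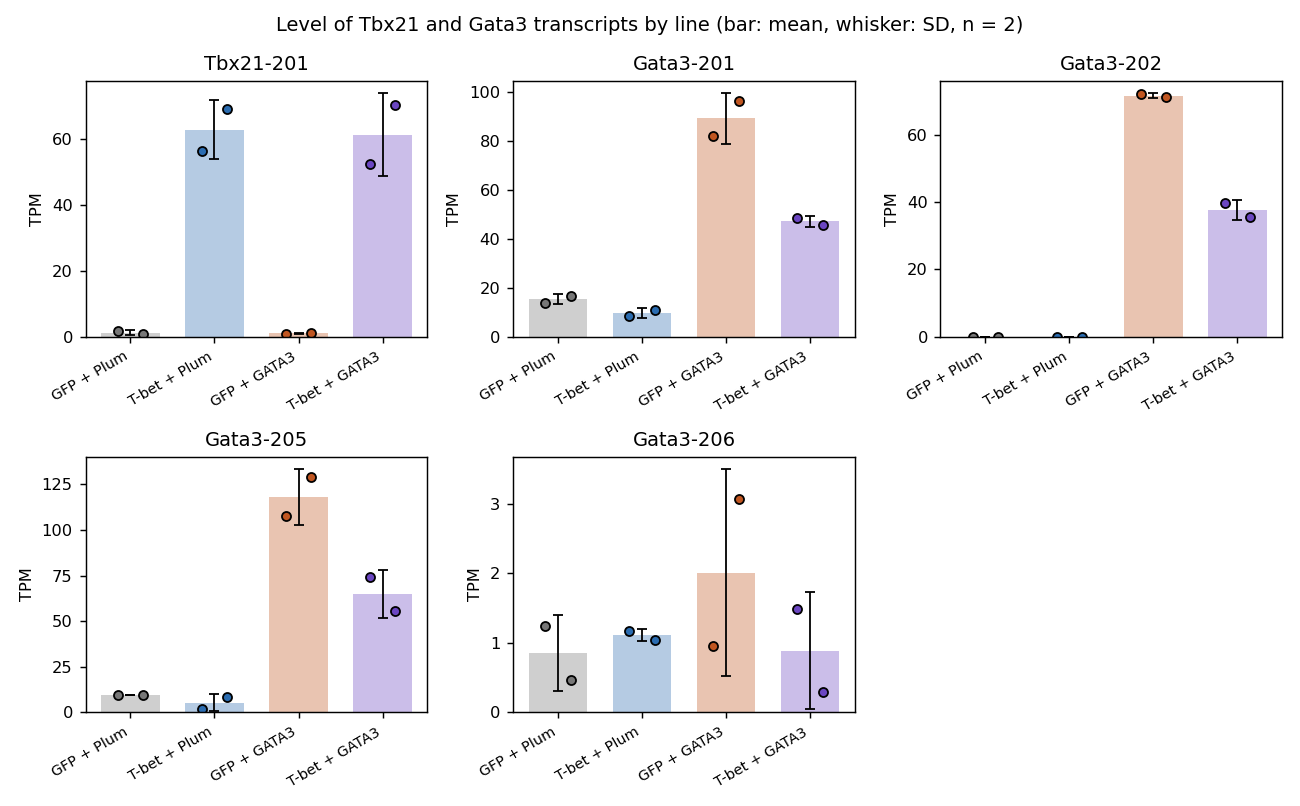
TPM of Tbx21-201 and of the 4 Gata3 transcripts above 3 counts in each of the 4 lines, on linear axes with a separate scale per panel (points, libraries; bars, means; whiskers, SD, n = 2). Gata3-202 is at 0 without HA-GATA3 and at 35.4 to 72.2 TPM with it, whereas Gata3-206 stays at or below 3.07 TPM throughout.

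The Gata3 counts, rounded to whole numbers, were divided differently among the transcripts in the lines with and without HA-GATA3. Gata3-201 took 94.6% and 96.1% of the Gata3 counts in GFP + Plum, 96.1% and 94.1% in T-bet + Plum, 80.5% and 82.0% in GFP + GATA3, and 80.1% and 82.1% in T-bet + GATA3. Gata3-202 took 13.6% (95% Wilson interval 12.4% to 14.8%) and 11.5% (10.7% to 12.5%) in GFP + GATA3, and 12.6% (11.2% to 14.2%) and 12.2% (10.95% to 13.5%) in T-bet + GATA3. In the 4 libraries without HA-GATA3 it took 0 of 207 to 840 counts. The upper limit of the Wilson interval there was 1.82% in the shallowest of them and 0.455% in the deepest. These intervals cover counting error only, and not the error of dividing fragments between transcripts. Gata3-205 took 0.966% to 3.92% of the counts without HA-GATA3 and 5.45% to 6.74% with it.

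On the TPM scale, which weights a fragment on a short transcript more heavily, Gata3-201 held 53.6% to 73.1% of the Gata3 TPM in the libraries without HA-GATA3 and 29.6% to 33.1% in those with it. Gata3-205 held 40.4% to 45.2% of the Gata3 TPM with HA-GATA3, more than Gata3-201 in every one of those libraries. The TPM ratio of Gata3-202 to Gata3-201 lay between 0.736 and 0.880 in the 4 libraries with HA-GATA3, with the values of the 2 lines overlapping.

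**Figure D3:**
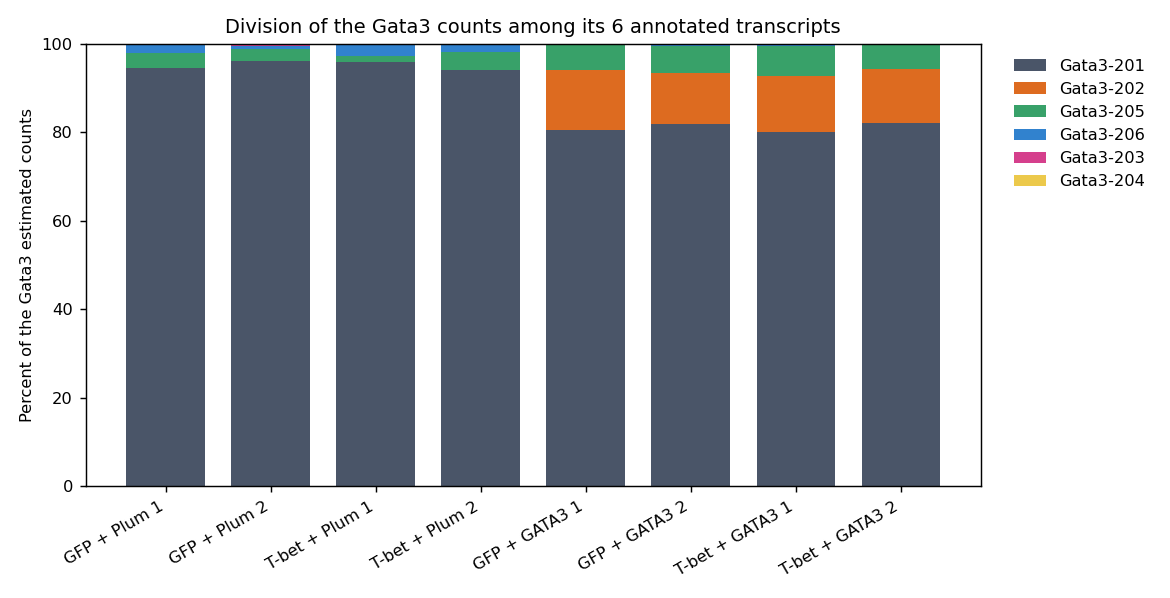
Percent of the Gata3 estimated counts assigned to each of the 6 annotated transcripts, with 1 stacked bar per library. Gata3-201 takes 94.1% to 96.1% in the 4 libraries without HA-GATA3 and 80.1% to 82.1% in the 4 with it, where Gata3-202 and Gata3-205 take nearly all of the rest.

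Differences between lines were tested on estimated counts with edgeR's quasi-likelihood test and the false discovery rate (FDR) over all features tested, and a feature was called at FDR of at most 0.05 with a log2 fold change above 1.5 in size. FLAG-T-bet raised the Tbx21 total, from 2.68 ± 1.28 CPM in GFP + Plum to 144 ± 21.3 CPM (SD, n = 2 each) in T-bet + Plum, by 5.74 ± 0.293 on the log2 scale (SE, FDR 6.34e-05). In cells with HA-GATA3, Tbx21 rose from 2.11 ± 0.148 CPM to 148 ± 17.8 CPM, by 6.11 ± 0.306 on the log2 scale (SE, FDR 7.12e-05). In these contrasts, 3.02% and 2.85% of 14791 genes were called. At transcript level Tbx21-201 was also called, with log2 fold changes of 5.73 (FDR 0.00765) and 6.12 (FDR 0.00867), where 0.204% and 0.184% of 44047 transcripts were called. The transcript call in cells without HA-GATA3 was lost in a fit of its 4 libraries alone (5.72, FDR 0.137). The transcript calls were also lost without either T-bet + Plum library in the former contrast and without either GFP + GATA3 library in the latter, at log2 fold changes of 5.55 to 6.21, whereas the gene calls held without any single library.

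With HA-GATA3, the Tbx21 total was not called in either background. The log2 fold change of the Tbx21 total was -0.34 ± 0.341 in GFP + GATA3 against GFP + Plum (SE, FDR 1, approximate 95% interval -1.12 to 0.45). In T-bet + GATA3 against T-bet + Plum it was 0.037 ± 0.224 (SE, FDR 1, interval -0.48 to 0.55). The latter sign turned with scaling by library size only (-0.00081) and without the first T-bet + Plum library (-0.11) or the second T-bet + GATA3 library (-0.10), and the former turned without the first GFP + Plum library (0.26). The amount of Tbx21 RNA was therefore not shown to differ between the lines with T-bet alone and with both factors.

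HA-GATA3 raised the Gata3 total in both backgrounds. It went from 46.5 ± 9.54 CPM in GFP + Plum to 304 ± 30.0 CPM in GFP + GATA3 (SD, n = 2 each), a log2 fold change of 2.71 ± 0.211 (SE, FDR 0.0110). It went from 30.3 ± 6.44 CPM in T-bet + Plum to 184 ± 27.5 CPM in T-bet + GATA3, a log2 fold change of 2.59 ± 0.214 (SE, FDR 0.00887). In these contrasts 0.0203% and 0.0338% of genes were called, 3 and 5 of 14791. The former call was lost without the second GFP + GATA3 library (2.60, FDR 0.0695) and in a fit of its 4 libraries alone (2.71, FDR 0.173). The latter was lost without the first T-bet + Plum library (2.40, FDR 0.153), the second T-bet + Plum library (2.84, FDR 0.0952) or the first T-bet + GATA3 library (2.43, FDR 0.0853). With offsets for the average transcript length of Gata3 in each library, these log2 fold changes were 3.36 and 3.32.

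No single Gata3 transcript was called with HA-GATA3. Gata3-201 was higher by 2.48 ± 0.240 on the log2 scale in GFP + GATA3 (SE, FDR 0.224) and by 2.39 ± 0.241 in T-bet + GATA3 (SE, FDR 0.253), each against its line without HA-GATA3. Gata3-205 had log2 fold changes of 3.62 ± 0.662 (SE, FDR 0.770) and 3.72 ± 0.683 (SE, FDR 0.613), and Gata3-206 of 1.25 ± 0.987 and -0.18 ± 1.009 (SE, FDR 1 in both). Gata3-202 was at 0 in every library without HA-GATA3 and passed the filter on low counts through the lines with HA-GATA3 alone, so its test (FDR 0.161 and 0.174) adds nothing to the levels given above. In these contrasts 0% and 0% of the 44047 transcripts were called by edgeR, with 1324 and 1534 at an unadjusted p under 0.05. DESeq2 called 135 and 160 transcripts and limma on TPM called 1 and 5. Gata3-201 was called in both contrasts by DESeq2 and by edgeR without a filter on low counts (FDR 0.0157 and 0.0121) or with at least 10 counts in every library (FDR 0.0427 and 0.0404). Gata3-205 was called in both by DESeq2.

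Gata3 was lower with FLAG-T-bet, with and without HA-GATA3, by less than the fold threshold, so that it could not be called at any FDR. The log2 fold change of the total was -0.61 ± 0.206 in T-bet + Plum against GFP + Plum (SE, FDR 0.146, unadjusted p 0.0182) and -0.73 ± 0.198 in T-bet + GATA3 against GFP + GATA3 (SE, FDR 0.0789, unadjusted p 0.00629). The approximate 95% intervals were -1.08 to -0.13 and -1.18 to -0.27. With HA-GATA3 the total holds introduced and endogenous Gata3 RNA, which cannot be told apart, so a lower endogenous Gata3 was not shown there. The FDR depended on the fit. In cells with HA-GATA3 it was 0.0118 with DESeq2, 0.0343 with library-size scaling, 0.00070 without a filter on low counts, 0.0474 with the replicate block and 0.0481 with the 4 libraries alone, and it ranged up to 0.380 over the alternatives. In cells without HA-GATA3 it was 0.0065 without a filter and 0.0615 to 0.502 in the other alternatives. Within the GATA3 lines the short and long transcripts were lower by like amounts, with log2 fold changes of -0.73 ± 0.228 for Gata3-201, -0.73 ± 0.232 for Gata3-202 and -0.65 ± 0.592 for Gata3-205 (SE, FDR 0.419, 0.507 and 0.851). The TPM of Gata3-201 in T-bet + GATA3 was 0.528 times that in GFP + GATA3, and that of Gata3-202 was 0.525 times. Without HA-GATA3, the log2 fold change of Gata3-201 was -0.64 ± 0.232 (SE, FDR 0.497).

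The effect of HA-GATA3 was then compared between cells with and without FLAG-T-bet as an interaction, called at FDR of at most 0.05 alone. The interaction was -0.12 ± 0.285 for the Gata3 total and 0.37 ± 0.407 for the Tbx21 total on the log2 scale (SE, FDR 1.00 for each). For Gata3-201 it was -0.089 ± 0.324 and for Gata3-205 0.10 ± 0.840 (SE, FDR 1.00 for each). The sign of each of these 4 turned when 1 library or another was left out. In edgeR 0% of genes and 0% of transcripts were called for the interaction, with 381 genes and 1451 transcripts at an unadjusted p under 0.05. DESeq2 called 12 genes and 135 transcripts, and limma on TPM called 2 genes and 0 transcripts.

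**Figure D4:**
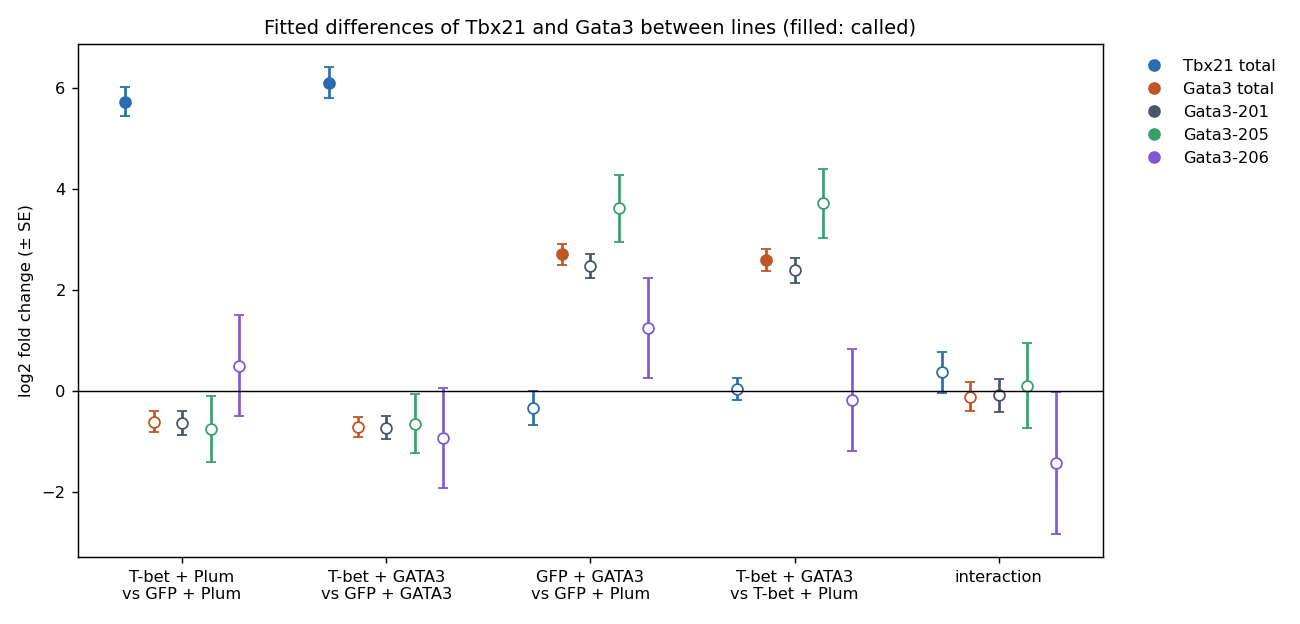
Log2 fold changes with SE of the Tbx21 and Gata3 totals and of 3 Gata3 transcripts in the 5 comparisons (edgeR, all 8 libraries; filled points, called). The Tbx21 total is called at 5.74 and 6.11 with FLAG-T-bet and the Gata3 total at 2.71 and 2.59 with HA-GATA3, and no other point is called. Gata3-202 is not drawn, because a fitted fold against libraries at 0 has no fixed size.

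Whether the transcripts of Gata3 changed relative to each other was tested with edgeR's test of transcript usage over the 4 Gata3 transcripts that passed the filter. With HA-GATA3 the test gave FDR 0.00022 in GFP + GATA3 against GFP + Plum and FDR 0.00094 in T-bet + GATA3 against T-bet + Plum. Among 8462 genes with at least 2 tested transcripts, 0.579% and 0.733% were called in these contrasts. Both calls rested on Gata3-202, which passed the filter through the lines with HA-GATA3 alone and so had to differ, and they are not support for a change in usage. Without it, a step added after the data were seen, the FDR was 1 and 0.515, and a change in usage among the other 3 transcripts was not shown. With FLAG-T-bet the FDR for Gata3 was 1.00 in cells without HA-GATA3 and 1.00 in cells with it, where 1.17% and 0.768% of genes were called, and it was 1.00 for the interaction, where 0.981% were called. In this test each transcript was set against a common fold of all 4 tested Gata3 transcripts, itself and Gata3-202 included. Against that fold, Gata3-205 moved by 0.90 on the log2 scale in GFP + GATA3 (unadjusted p 0.226) and by 1.10 in T-bet + GATA3 (unadjusted p 0.157). Its own change in relative use was not shown. Gata3-206, whose exon 2 lies in the coding sequence as well, moved by -1.47 (unadjusted p 0.245) and -2.80 (unadjusted p 0.0349). The values for Gata3-205 and Gata3-206 therefore also rest in part on Gata3-202.

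Gata3-202 has 426 of its 644 stretches of 31 bases within the Gata3-201 coding sequence, and Gata3-205 has 154 of 213. The same holds for 409 of 701 in Gata3-206. That transcript was at 3 to 28 counts per library and was not called in any contrast, so nothing is drawn from its result. The part of shared coding sequence in the estimates for Gata3-202 and Gata3-205 was not tested, since positions of fragments and resampled estimates were not used here. An introduced cDNA and the endogenous gene cannot be told apart in these values.

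The ratio of the 2 factors' full-length transcripts differed between the lines. The TPM of Tbx21-201 was 0.0451 and 0.124 times that of Gata3-201 in GFP + Plum, 0.0108 and 0.0115 times in GFP + GATA3, 6.29 and 6.77 times in T-bet + Plum, and 1.07 and 1.54 times in T-bet + GATA3. In the line with both factors the full-length transcripts were thus closest to each other, with Tbx21-201 above Gata3-201 in both libraries. The order was the reverse for the gene totals of that line. There Tbx21 was at 52.4 and 70.2 TPM, and all Gata3 transcripts together at 164 and 138 TPM. Of that Gata3 TPM, the short Gata3-205 held 45.2% and 40.4%, on 6.74% and 5.45% of the Gata3 counts. In CPM, which are not scaled for length, the totals were closer, with Tbx21 at 135 and 160 and Gata3 at 204 and 165.

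The genes around the loci were compared because a cDNA does not carry them. Of 16 genes within 100 kb of Tbx21, 6 were tested and none was called by edgeR, DESeq2 or limma in any of the 5 comparisons. At an unadjusted p under 0.05 there were 1 in T-bet + Plum against GFP + Plum, 3 in T-bet + GATA3 against GFP + GATA3 and 0 in the others. Of all 14791 genes, 2865 and 2897 were at such a p in the 2 contrasts named. Tbkbp1, which encodes a TBK1-binding adaptor, had a mean of 16.3 CPM with HA-GATA3 alone and of 7.10 CPM with both factors, a log2 fold change of -1.19 (FDR 0.0121) that was under the fold threshold. Kpnb1, which encodes the nuclear import receptor importin beta, was the most abundant at 918 to 1150 CPM over the lines. Of 5 genes within 100 kb of Gata3, Taf3, which encodes a TFIID subunit, was the one tested, at 25.4 to 31.4 CPM over the lines, and it was not called by edgeR, DESeq2 or limma, with 0 comparisons at an unadjusted p under 0.05. Gm13256, an antisense gene that shares 97 stretches of 31 bases with Gata3-201, was at 1 count or fewer in every library.

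Other members of the 2 families were mostly at low counts. In the T-box family, 2 of 16 other genes were tested, and in the list of GATA factors and their FOG partners 1 of 8, with none called by edgeR, DESeq2 or limma and 0 at an unadjusted p under 0.05 in any comparison. Mga, which pairs a T-box with a basic helix-loop-helix domain, was at 124 to 137 CPM over the lines, Tbx19 at 0.524 to 1.97 CPM and the FOG factor Zfpm1 at 88.7 to 110 CPM. Eomes, the T-box factor of cytotoxic cells, and Gata1 and Gata2, which act in blood cell development, were at 0 counts in every library.

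Of the signals and factors placed upstream of Tbx21 in T cells, 5 of 17 tested were called with FLAG-T-bet in each background, where 3.02% and 2.85% of all genes were called. Of these 17, 4 rose and 1 fell in T-bet + Plum against GFP + Plum, with a median log2 fold change of 0.74 against 0.011 over all genes. In T-bet + GATA3 against GFP + GATA3, 4 rose and 1 fell, with a median of 0.94 against 0.011. DESeq2 called 4 and 5 of the 17 in these contrasts, and limma on TPM called 4 and 4. Ifng, which encodes interferon gamma, Stat4, the mediator of interleukin-12 signals, and Il12rb1, a subunit of its receptor, rose in both contrasts, and Ifngr2, a chain of the interferon gamma receptor, fell in both. Ifng went from 0.442 to 3379 CPM in cells without HA-GATA3, and Ifngr2 from 5.56 to 0.131 CPM. Without FLAG-T-bet, Ifng was at most 0.698 CPM and Stat4 at most 0.0619 CPM, and with it Ifngr2 was at most 0.973 CPM. These genes passed the filter on low counts through the lines in which they were high. Their calls, counted above, therefore add nothing to their levels. Irf1, an interferon-induced factor, rose by 1.69 on the log2 scale in cells without HA-GATA3 (FDR 0.00108) and had a log2 fold change of 0.98 in cells with it (FDR 0.0110), under the fold threshold. Rel, which encodes the NF-kappaB subunit c-Rel, rose by 1.71 in cells with HA-GATA3 (FDR 0.00176) and had a log2 fold change of 1.31 in cells without it (FDR 0.0055), also under the fold threshold. The interaction was not called for either gene (FDR 1.00 for each). With HA-GATA3, none of the 17 was called by edgeR, DESeq2 or limma in either contrast, with 4 at an unadjusted p under 0.05 in GFP + GATA3 against GFP + Plum and 0 in T-bet + GATA3 against T-bet + Plum. Of all 14791 genes, 547 and 559 were at such a p there. Over all libraries, Ifng, Jak2 and Nfkb1 had the highest mean CPM of the list, at 1656, 1329 and 752.

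Of the signals and factors placed upstream of Gata3, 26 were tested, and 6 and 4 were called in the contrasts of FLAG-T-bet, where 3.02% and 2.85% of all genes were called. Of these, 5 rose and 1 fell in T-bet + Plum against GFP + Plum, with a median log2 fold change of -0.020 against 0.011 over all genes, and 3 rose and 1 fell in T-bet + GATA3 against GFP + GATA3, with a median of 0.11. DESeq2 called 7 and 4 of the 26 in these contrasts, and limma on TPM called 3 and 2. Il4ra, the interleukin-4 receptor chain, rose by 1.90 on the log2 scale in both contrasts (FDR 0.00157 and 0.00175). Stat5a, a mediator of interleukin-2 signals, rose by 1.76 and 2.21 (FDR 0.00025 and 0.00010), and Gfi1, a repressor induced in activated T cells, by 1.62 and 1.66 (FDR 0.0344 and 0.0310). Il2rb and Runx1 rose in cells without HA-GATA3 alone by this threshold, and the difference between the contrasts was not called. Maf, a factor that promotes interleukin-4, fell in both, with log2 fold changes of -3.89 and -4.24 (FDR 8.45e-05 and 7.75e-05). With HA-GATA3, none of the 26 was called by edgeR, DESeq2 or limma, with 2 and 1 at an unadjusted p under 0.05 in the 2 contrasts, against 547 and 559 of all 14791 genes. Il4 itself was at 0 in both GFP + Plum libraries and at most 2.70 CPM in any library, and its FDR was 0.140 or above.

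The genes whose pattern was most like that of each factor were named by Pearson correlation of log2 CPM over the 8 libraries among 11063 protein-coding genes, as a description, since libraries of a line share their condition. For Tbx21 they were Ppfia2, H2-T22, Ctsw, Slc6a12 and Arl4d (r 0.996 to 0.998), and 294 genes had r above 0.95. Slc6a12, a betaine transporter, was at 551 and 504 CPM with FLAG-T-bet and at 1.88 and 1.24 CPM without it. Ctsw, a protease of cytotoxic cells, was at 83.0 and 48.0 CPM with FLAG-T-bet and at 0.343 and 0.223 CPM without it. For Gata3 they were Mrgprx1, Sema4b, Avpi1, Map2k3 and Prdx4 (r 0.926 to 0.955), and 2 genes had r above 0.95. Mrgprx1, a receptor known from sensory neurons, had means of 8.53 ± 2.19 CPM with HA-GATA3 alone and 4.90 ± 0.720 CPM with both factors (SD, n = 2 each), against 0 in the GFP + Plum line and 0.0964 CPM in the T-bet + Plum line. Map2k3, a kinase of the p38 pathway, was the most abundant of these 5, with means of 1195 CPM in the GFP + GATA3 line and 701 CPM in the GFP + Plum line.

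The identity of the cells was checked with T cell markers and with markers of other blood cells. The 13 T cell markers summed to 2652 to 3409 CPM per library, and the 17 markers of other blood cells to 3.24 to 5.72 CPM. Of the latter, 7 were at 0 in every library, including Cd79b and Ncr1. Ptprc had the highest mean of the T cell list, at 1236 CPM, whereas Cd247 was at 10 counts or fewer in every library. Cd68 had the highest mean of the other list, at 2.66 CPM on 19 to 55 counts. Of 12 T cell markers tested, Cd2, an adhesion receptor, and Lck, a kinase of T cell receptor signalling, rose in T-bet + Plum against GFP + Plum. Cd2 rose in T-bet + GATA3 against GFP + GATA3, where Lck had a log2 fold change of 1.25 (FDR 0.114) and was not called. The difference between these contrasts was not called for Lck. In these contrasts 3.02% and 2.85% of all genes were called, and limma on TPM called 1 T cell marker in each. Of 4 markers of other blood cells tested, none was called by edgeR, DESeq2 or limma in any comparison, with 1 and 2 at an unadjusted p under 0.05 in the contrasts of T-bet + Plum against GFP + Plum and of T-bet + GATA3 against GFP + GATA3, and 0 in the others. Of all 14791 genes, 2865 and 2897 were at such a p in the 2 contrasts named. Cd4, the helper T cell coreceptor, was at 0.595 to 2.99 CPM over the lines. In such bulk libraries, fewer cells of a type and less RNA per cell cannot be told apart.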

How the data were processed

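Poly-adenylated RNA of 8 libraries (4 EL4 lines, 2 harvests each) was sequenced. The authors trimmed reads with Trim Galore, checked them with FastQC and quantified transcripts with kallisto on GENCODE transcripts of mm10 (GRCm38), for which the sources name differing releases. They deposited, per library and without pooling, estimated counts and TPM for 136535 transcripts of 54146 genes. TPM keep no depth, and no resampled estimates were used here, so the error of dividing fragments between transcripts is in no SE. The total estimated count per library was 8038565 to 16003519.

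Members and gene lists were chosen with earlier results of these data known. Estimated counts, rounded, were tested per transcript and summed per gene with edgeR 4.0.16 (R 4.3.3, TMM, filterByExpr, quasi-likelihood test, 4 residual degrees of freedom, Benjamini-Hochberg over all features), and transcript usage with its diffSpliceDGE function. CPM are on TMM-scaled library sizes. Models, lengths and 31-base stretches came from GENCODE M21, in which 54079 gene identifiers of the files were found, and deposited lengths of the 7 transcripts equalled its lengths. Named were all members, neighbours within 100 kb, the 5 most similar protein-coding genes, and called or most abundant list members. Alternatives were DESeq2 1.42.0, limma 3.58.1 on log2(TPM + 0.5), other scalings and filters, length offsets, a replicate block and each library left out. Scripts were tested on simulated data. The libraries of a line differed by more than sampling noise in each line (chi-square per degree of freedom of 10.9 to 32.5).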

Additional observations from a re-analysis of the deposited data

How the results depend on the processing

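The Tbx21 total kept its call with FLAG-T-bet under every alternative run (log2 fold change 5.24 to 6.33 and 5.36 to 6.21 in cells without and with HA-GATA3). The Gata3 total was lower with FLAG-T-bet and higher with HA-GATA3 under every alternative (-0.85 to -0.38, -0.91 to -0.62, 2.51 to 3.40 and 2.40 to 3.32). For GFP + GATA3 against GFP + Plum its call was lost in a fit of those libraries by themselves (2.71). Leaving out each library gave 2.51 to 2.94 there and, for T-bet + GATA3 against T-bet + Plum, 2.40 to 2.84, with the lost calls named beside the result. The usage calls rested on Gata3-202, which is at 0 in every library without HA-GATA3, and were lost without it (FDR 1 and 0.515).

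Values near 0 changed sign. For the Tbx21 total, T-bet + GATA3 against T-bet + Plum was -0.00081 with library-size scaling and -0.043 with limma on TPM, and -0.11 to 0.20 with each library left out. GFP + GATA3 against GFP + Plum ranged from -0.75 to 0.26 and the interaction from -0.22 to 0.78. The Gata3 interaction ranged from -0.35 to 0.13. Tbx21-201 behaved like its total, at -0.00095 with library-size scaling and -0.043 with limma for T-bet + GATA3 against T-bet + Plum. With each library left out it ranged from -0.099 to 0.23 there, from -0.75 to 0.23 in GFP + GATA3 against GFP + Plum and from -0.17 to 0.81 for the interaction. The interaction ranged from -0.33 to 0.15 for Gata3-201 and from -0.57 to 1.87 for Gata3-205. Gata3-206 ranged from -2.49 to 0.12 in T-bet + GATA3 against GFP + GATA3 and from -1.75 to 0.60 in T-bet + GATA3 against T-bet + Plum. The cause was not tested.

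Replicate numbers were not shown to pair the libraries, since the correlation of same-numbered deviations was -0.046 to 0.30 over the 6 pairs of lines. With the replicate block no call of a member changed, and 30 and 46 transcripts were called with FLAG-T-bet without and with HA-GATA3, against 90 and 81 without the block.

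Counts over all features depended on the filter and tool. Without a filter on low counts, 814, 138, 813 and 124 genes were called in T-bet + Plum against GFP + Plum, GFP + GATA3 against GFP + Plum, T-bet + GATA3 against GFP + GATA3 and T-bet + GATA3 against T-bet + Plum, against 446, 3, 421 and 5. DESeq2 called 27 and 23 genes in the 2 contrasts of HA-GATA3, and 794 and 707 transcripts in the 2 of FLAG-T-bet. With at least 10 counts in every library, 243 and 222 genes were called with FLAG-T-bet, and by FDR alone 917 and 854. Fits of a comparison alone called 0 and 10 transcripts with FLAG-T-bet, and limma on TPM 199 and 158. With 2 libraries per line, Gata3-203 and Gata3-204, at 3 counts or fewer in every library, could not be tested.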
